A study of Homo sapiens with 6 samples.

Results

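The 10 genes described here are PERP and the desmosome genes DSP, JUP, PKP1, PKP2, PKP3, DSG2, DSG3, DSC2 and DSC3, taken by gene name from the 50867 genes with values in the table. The RNA came from UM-UC-3 and 5637, which are human lines derived from bladder cancers and in which a control hairpin (sh-NC) or 1 of 2 hairpins against the long noncoding RNA LNMAT1 (sh-LNMAT1#1, sh-LNMAT1#2) was stably expressed. There was 1 library for each hairpin in each line, 6 libraries in all, so a comparison within a line has no replicate and no test. Levels are FPKM, fragments scaled to gene length and library depth, and all differences are differences of log2(FPKM + 0.5), which understate the change of a gene near 0. Genes were tested where their mean reached 1 FPKM over the libraries compared.

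Desmosomes are the spot-like junctions that tie the keratin filaments of neighbouring epithelial cells together. Desmogleins (DSG) and desmocollins (DSC) are cadherins that cross the membrane and bind those of the next cell. Plakoglobin (JUP) and the plakophilins (PKP1, PKP2 and PKP3) bind their tails on the inside, and desmoplakin (DSP) links this plaque to keratin. PERP is a tetraspan membrane protein, a transcriptional target of p63, which takes part in desmosome assembly in stratified epithelia. The bladder lining, the urothelium, is such a layered epithelium.

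The target of the hairpins, listed as LINC01296 (LNMAT1), had a level of 14.2 FPKM in the UM-UC-3 control and of 6.20 and 6.70 with the first and the second hairpin. For 5637, the target stood at 11.7 FPKM under the control label, against 4.70 and 2.14 with the 2 hairpins. As the libraries are labelled, it was thus lower with either hairpin in either line. The 5637 part of this rests on a control library that did not match its line, as described next. An effect of the hairpins on the target in 5637 therefore cannot be separated from that mismatch. The libraries held 19374807 to 24706820 fragments. The library labelled 5637 sh-NC stood apart from the other 5637 libraries. Over the 10 genes, its median absolute log2 difference was 0.06 from UM-UC-3 sh-NC and 0.06 from UM-UC-3 sh-LNMAT1#2, with 1 gene at least 2-fold apart in either case, 0.08 from UM-UC-3 sh-LNMAT1#1, with 0 genes so far apart, and 2.58 and 2.61 from the 5637 knockdown libraries, with 10 and 9 genes at least 2-fold apart. Of the 9 epithelial markers, 8 reached 1 FPKM in either 5637 knockdown library, while 2 did so in the library labelled 5637 sh-NC and in each UM-UC-3 library. The summed level of those markers was 718 and 954 FPKM in the 5637 knockdown libraries, 26.9 in the library labelled 5637 sh-NC and 21.5 to 31.0 in UM-UC-3. The label of this library thus goes against the markers of the other 5637 libraries, and it is called by its label throughout.

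The desmosomal cadherins lie in a single gene cluster, and PERP and DSP on another chromosome, so the sequences before their starts are shown first, from RefSeq on GRCh38.p14. RefSeq windows of 300 bases, 250 before and 50 after the start, were given for 8 of the 10 genes, and JUP and DSC2 had 2 windows each. They were searched on both strands for CACCTG, the E-box that ZEB and SNAI repressors are known to bind, for AACCGGTT, a grainyhead motif, and for CACGTG, an E-box of the MYC type. CACCTG or its reverse complement was present in windows of 4 genes, DSP, JUP, DSC2 and DSG2, and in 20.6% of all 35116 promoter windows. AACCGGTT, held by 0.134% of all windows, and CACGTG, held by 7.26%, were found in 0 of the 10 windows. The 250 bases before the start of 4 genes are printed 5′ to 3′ with CACCTG or its reverse complement in capitals, because they pair a gene detected in every library (PERP, DSG2) with one near 0 in 4 libraries (DSP, DSG3), without and with the motif. A match is a description of the letters and not of a bound site, and the RefSeq window of DSG3 ends before the gene start in the table (chr18:31447795-31478702).
PERP, chr6:138107420-138107669, minus strand, no match: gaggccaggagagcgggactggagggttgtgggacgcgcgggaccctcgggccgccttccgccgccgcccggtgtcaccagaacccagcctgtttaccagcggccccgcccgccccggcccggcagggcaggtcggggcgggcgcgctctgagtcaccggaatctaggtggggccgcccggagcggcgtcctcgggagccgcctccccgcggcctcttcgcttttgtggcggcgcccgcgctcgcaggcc
DSP, chr6:7541421-7541670, plus strand, 2 matches: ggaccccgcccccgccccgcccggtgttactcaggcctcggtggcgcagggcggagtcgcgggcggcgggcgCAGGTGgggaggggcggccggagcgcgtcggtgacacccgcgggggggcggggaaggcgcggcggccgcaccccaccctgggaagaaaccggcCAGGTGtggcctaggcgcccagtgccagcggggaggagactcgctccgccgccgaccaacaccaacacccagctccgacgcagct
DSG2, chr18:31497927-31498176, plus strand, 2 matches: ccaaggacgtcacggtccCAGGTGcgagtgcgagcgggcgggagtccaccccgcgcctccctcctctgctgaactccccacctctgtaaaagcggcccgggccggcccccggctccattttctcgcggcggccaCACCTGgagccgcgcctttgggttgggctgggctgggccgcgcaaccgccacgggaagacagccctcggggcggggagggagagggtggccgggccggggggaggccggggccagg
DSG3, chr18:31447491-31447740, plus strand, no match: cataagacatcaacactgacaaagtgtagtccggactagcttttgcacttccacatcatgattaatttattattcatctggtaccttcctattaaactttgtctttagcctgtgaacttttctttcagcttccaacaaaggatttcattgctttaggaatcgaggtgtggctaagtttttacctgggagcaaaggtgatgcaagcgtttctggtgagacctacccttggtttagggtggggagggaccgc

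PERP was the member at least 2-fold higher with both hairpins in both lines, as the libraries are labelled. It is a gene of 4290 bases of exon on chromosome 6 (chr6:138088505-138107511, hg38, minus strand) with 1 annotated transcript. Its level in UM-UC-3 was 12.4 FPKM with sh-NC, 54.5 with sh-LNMAT1#1 and 31.3 with sh-LNMAT1#2. In 5637 the PERP level was 50.2 FPKM for the sample labelled sh-NC, 157 with sh-LNMAT1#1 and 196 with sh-LNMAT1#2. Both knockdown libraries of a line were above the sh-NC library of that line, and the library labelled 5637 sh-NC lay between the 2 UM-UC-3 knockdown libraries.

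**Figure D1:**
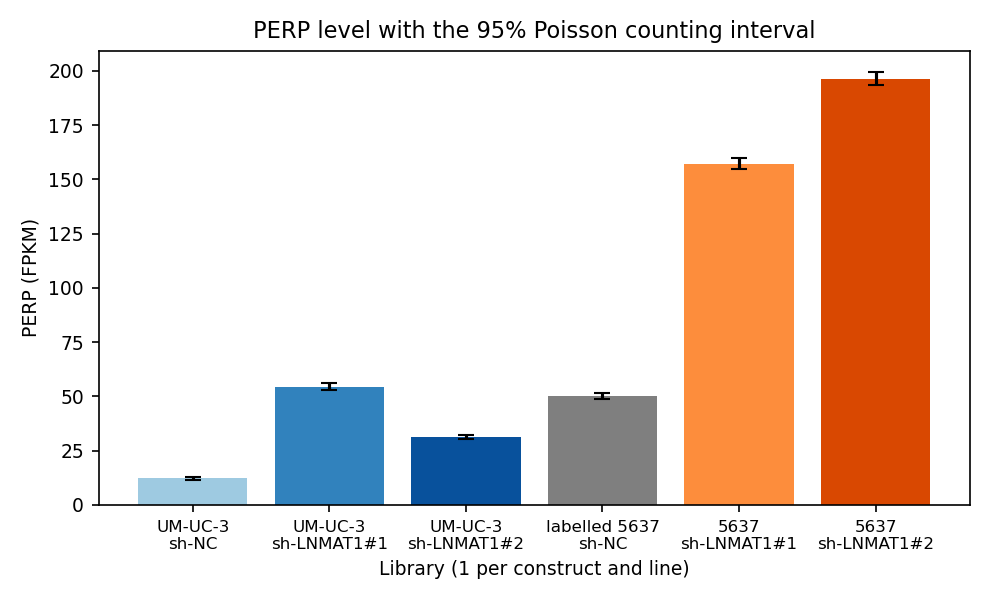
Bars give the PERP level in FPKM in each of the 6 libraries, and the error bars are 95% Poisson intervals, which cover counting error only. The UM-UC-3 control is lowest at 12.4 FPKM, the grey bar (labelled 5637 sh-NC) stands at 50.2 FPKM, and the 5637 knockdown libraries are highest at 157 and 196 FPKM.

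The counts behind PERP ranged from 1312 fragments in UM-UC-3 sh-NC to 16313 in 5637 sh-LNMAT1#2, and the 95% Poisson interval was 11.7 to 13.1 FPKM in the former and 193 to 199 in the latter. The log2 difference from sh-NC was 2.10 and 1.30 for the 2 hairpins in UM-UC-3 and 1.64 and 1.96 in 5637. Over all 6 libraries with the line as a covariate, PERP was higher with knockdown by 1.75 ± 0.30 (SE) on the log2 scale. Its limma p of 0.0012 became 0.569 after Benjamini-Hochberg adjustment. Each of the 4 knockdown libraries was above the library labelled as the control of its line. In 5637 that is the library labelled 5637 sh-NC, so there the knockdown and the mismatch of that library cannot be told apart. Of 12716 genes tested in this pooled comparison, limma called 0 higher and 0 lower (0% in either direction), and 811 had an unadjusted p under 0.05, PERP alone among the 8 members tested. Without UM-UC-3 sh-NC, the pooled fit has the library labelled 5637 sh-NC as its only control, so its knockdown difference rests on the 5637 libraries alone. Averaged over the hairpins, PERP differed there by 1.80. The difference of its knockdown effect between the lines was 0.10, with a 95% interval from -1.27 to 1.47 and an adjusted limma p of 0.911, an interval that holds differences of over 2-fold in either direction.

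In UM-UC-3, PERP, PKP3 and DSG2 passed the filter and the other 7 members did not. Of 12024 genes, 1.08% were higher and 0.358% lower by 2-fold or more with each hairpin in UM-UC-3, and PERP was the 1 member among those higher. Of the 6 mesenchymal markers, all tested in UM-UC-3, 0 were higher and 1 was lower by this rule, namely VIM, at 331.9 FPKM with sh-NC and 115.8 and 155.0 with the hairpins, while FN1 (0.67) and CDH2 (0.34) had mean log2 differences above 0. PKP3, a plakophilin, was at 2.54 FPKM with sh-NC, 0.984 with sh-LNMAT1#1 and 4.03 with sh-LNMAT1#2, on opposite sides of the control. DSG2, the desmoglein of simple as well as layered epithelia, was at 17.9, 21.0 and 15.4 FPKM in the same order, again on both sides of the control.

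The other 7 members were low throughout UM-UC-3. DSC2 was the highest of them, at 0.424 FPKM in the control and 0.567 and 0.477 with the hairpins, which came from 154, 186 and 161 fragments. DSP was at 0.236, 0.153 and 0.220 FPKM, from 89, 52 and 77 fragments. JUP was at 0.225, 0.155 and 0.0923 FPKM, from 42, 26 and 16 fragments. PKP1, PKP2, DSG3 and DSC3 rested on at most 9 fragments in any UM-UC-3 library, so small changes of these 4 genes were not detectable at this depth. Levels like those of 5637 would have been seen for PKP2, DSG3 and DSC3, whose upper 95% Poisson limits in the UM-UC-3 knockdown libraries were at most 0.0362, 0.0587 and 0.0653 FPKM.

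In 5637 the 2 knockdown libraries were above the other 4 libraries for all 10 members. JUP showed the widest gap: the library labelled 5637 sh-NC had 0.0885 FPKM, from 15 fragments, and the knockdown libraries had 77.8 and 91.3 FPKM, from 12229 and 13364 fragments. The DSP level was 0.134 FPKM under the sh-NC label and 18.8 and 18.5 with the hairpins, from 46, 5970 and 5483 fragments. Both plaque genes were thus low under the control label and high with either hairpin. In bulk libraries, fewer cells that express a gene and less RNA per cell cannot be told apart.

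**Figure D2:**
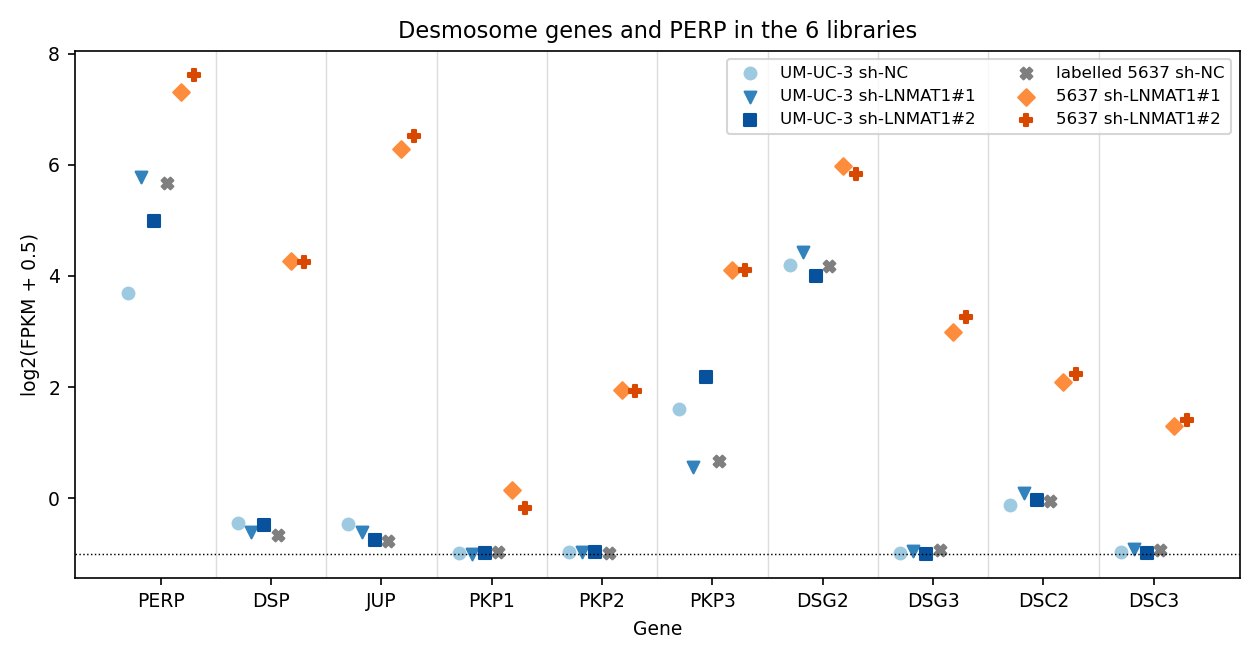
Each point is 1 gene in 1 library on the log2(FPKM + 0.5) scale, and the dotted line marks 0 FPKM. The 5637 knockdown libraries (orange) are the highest points for every gene, and the library labelled 5637 sh-NC (grey cross) sits among the UM-UC-3 libraries (blue).

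Among the plakophilins, the 5637 levels of PKP3 were 1.10 FPKM under the sh-NC label and 16.8 in both knockdown libraries. PKP2 was at 0.0082 FPKM in the former, from 2 fragments, and at 3.35 and 3.29 with the hairpins, from 757 and 693. PKP1, the plakophilin of the upper skin layers, reached only 0.607 and 0.386 FPKM in the knockdown libraries, from 98 and 58 fragments, and stayed under the filter. Of the FPKM summed over PKP1, PKP2 and PKP3, PKP3 held 81.0% and 82.1% in the 5637 knockdown libraries and 98.2% to 99.6% in the other 4. PKP4, a relative outside the members, was at 4.36 to 7.32 FPKM in those 4 libraries, above PKP3 in each.

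Among the cadherins, the 5637 levels of DSG2 were 17.5 FPKM under the sh-NC label and 62.9 and 56.9 with the hairpins. DSG3, a desmoglein of the basal layer of stratified epithelia, was at 0.0242 FPKM under that label, from 3 fragments, and at 7.50 and 9.12 with the hairpins, from 862 and 976. DSC2 was at 0.467, 3.76 and 4.19 FPKM, and DSC3 at 0.0265, 1.98 and 2.14, in the same order. DSG2 made up 97.0% to 97.6% of the FPKM summed over the 4 cadherins in UM-UC-3 and in the library labelled 5637 sh-NC, and 82.6% and 78.7% in the 5637 knockdown libraries, where DSG3 gave 9.85% and 12.6%.

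Against the library labelled 5637 sh-NC, 9 of the 9 members that passed the filter were at least 2-fold higher with both hairpins. This rule took 18.5% of 12790 genes as higher and 12.3% as lower, and the median log2 difference was 2.91 for the 9 members and 0.06 for all genes tested. The differences, averaged over the hairpins, ran from 1.74 for DSG2 and 1.80 for PERP to 4.92 for DSP and 7.17 for JUP. DSP, JUP, PKP2, DSG3, DSC2 and DSC3 passed the filter only through the 2 knockdown libraries, so their place in this count was fixed by those libraries. All of these differences use the library labelled 5637 sh-NC, and the knockdown and the mismatch of that library with the others of its line cannot be told apart.

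The 4 knockdown libraries allow a comparison of the lines that does not use either control. Among them, 9 of 10 members passed the filter, 9 of those 9 were called higher in 5637 than in UM-UC-3 by limma at an adjusted p under 0.05, and 0 were called lower. Of 12843 genes, 20.2% were called higher and 18.4% lower, and the median log2 difference was 2.74 for the 9 members and -0.02 for all genes tested. DSP, JUP, PKP2, DSG3, DSC2 and DSC3 reached the filter only through the 2 libraries of 5637, so the count and the median of the members were in part fixed by the filter and are given as a description. PERP, PKP3 and DSG2 averaged over 1 FPKM in the UM-UC-3 knockdown libraries as well. With 5637 sh-LNMAT1#1 or 5637 sh-LNMAT1#2 left out, the calls of PERP, PKP3 and DSG2 were lost in both cases. DSC3 then fell under the filter and was not tested. In those fits 5637 was represented by 1 library, which was assumed to vary like the others. With all 6 libraries grouped by their labelled line, limma called 0 members and 1 gene higher and 1 lower.

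JUP was higher in 5637 by 7.09 ± 0.21 (SE) on the log2 scale, with a limma adjusted p of 0.000152, and DSP by 4.81 ± 0.20, with an adjusted p of 0.000178. PERP was higher by 2.08 ± 0.31, with an adjusted p of 0.00593 that became 0.0851 without 5637 sh-LNMAT1#1 and 0.104 without 5637 sh-LNMAT1#2. The widest error was that of PKP3, at 2.74 ± 0.53, the gene whose 2 UM-UC-3 knockdown libraries differed most. The smallest difference was that of DSG2, at 1.71 ± 0.23, and the other members lay between 2.13 (DSC2) and 4.11 (DSG3).

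Counted in fragments, the ratio of 5637 to UM-UC-3 over the knockdown libraries, scaled to depth, was 686 for JUP, with a 95% interval from exact binomial limits of 507 to 952. It was 99.9 for DSP (84.0 to 120). DSG3 had 1838 fragments in 5637 against 2 in UM-UC-3, a ratio of 1035 with an interval from 286 to 8549. For PERP the ratio was 4.12 (4.02 to 4.22) and for DSG2 3.31 (3.20 to 3.41). These intervals cover counting error only. All members were higher in 5637, but by sizes that ran from that of DSG2 to that of DSG3.

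The knockdown differences of the 2 lines were then compared with each other. Limma called the difference higher in 5637 for 7 of 8 members tested, where 10% of 12716 genes were called higher and 8.79% lower. Of those 7, DSP, JUP, PKP2, DSG3 and DSC2 passed the filter only through the 5637 knockdown libraries where they were high, so this count is a description and is not to be read against the share of all genes. PERP was the exception, with the values given above. The call of PKP3 was lost with a pseudocount of 0.1, with no filter and with a filter of 5 FPKM, and that of DSG2 with no filter. This contrast turns on the library labelled 5637 sh-NC as the only control of its line, and could not be fitted without it.

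**Figure D3:**
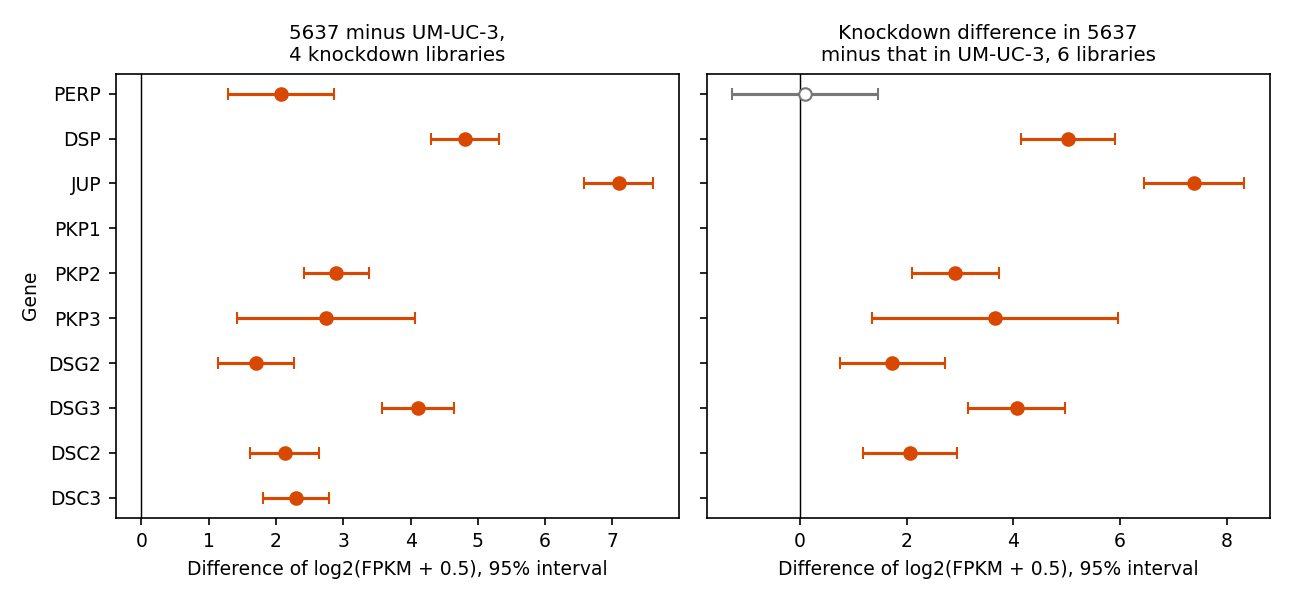
Points are differences of log2(FPKM + 0.5) with 95% intervals from limma, on the left between the lines among the 4 knockdown libraries and on the right between the knockdown differences of the lines over 6 libraries. Filled points passed an adjusted p under 0.05. PERP is filled on the left at 2.08 and open on the right at 0.10, and genes with no point were under the filter.

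The order of levels between genes depends on the length each value is divided by. The deposited FPKM divide by the summed length of all distinct exons, so genes with many transcripts have low values. That length was 7553 bases for JUP against 3497 in its longest transcript, a factor of 2.16, and the factor was 2.71 for PKP3, 2.53 for PKP2 and 1 for PERP and DSG3. In deposited FPKM the order in both 5637 knockdown libraries was PERP, JUP, DSG2, DSP, PKP3, DSG3, DSC2, PKP2, DSC3 and PKP1. DSP and PKP3, at 18.8 and 18.5 against 16.8 and 16.8 FPKM, and PKP2 and DSC2 were the closest neighbours.

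Per longest transcript, JUP was at 168 and 197 FPKM in these libraries and PERP at 157 and 196, so that PERP was no longer above JUP, and the 2 could not be told apart with sh-LNMAT1#2. PKP3 rose above DSP on this scale, with 45.6 and 45.6 FPKM against 29.3 and 28.9. PKP2, at 8.46 and 8.31 FPKM, came close to DSG3 at 7.50 and 9.12, and their order differed between the 2 libraries. In UM-UC-3 the 3 genes above 1 FPKM in sh-NC were DSG2, PERP and PKP3, and PERP was above DSG2 in both knockdown libraries but below it in sh-NC.

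**Figure D4:**
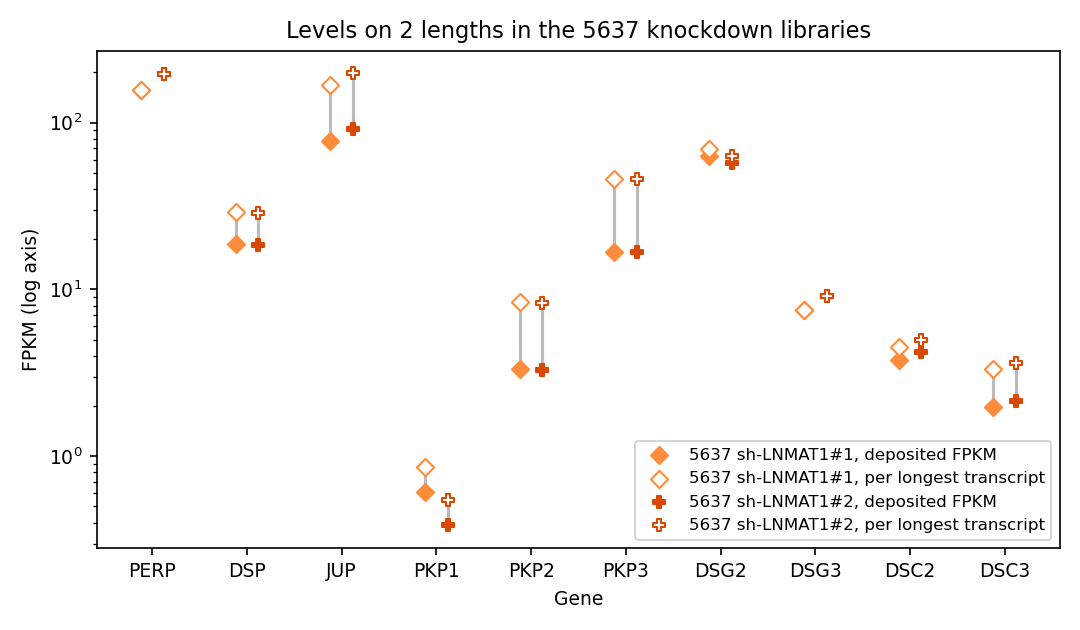
Points give the level of each gene in the 2 5637 knockdown libraries on a log axis, filled for deposited FPKM and open for FPKM per longest transcript. JUP moves from 77.8 and 91.3 to 168 and 197 FPKM, level with PERP, while PERP and DSG3 have 1 annotated transcript and do not move.

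The desmosomal cadherin genes lie within 559 kilobases on chromosome 18 (chr18:30990008-31549008, hg38). Of the 12 rows of the table in that interval, 4 reached 1 FPKM in any library, namely DSC3, DSC2, DSG3 and DSG2. DSG1, DSG4 and DSC1, the cadherins of the differentiated skin layers and hair, were at most at 0.0183, 0.00739 and 0.0420 FPKM in any library. DSG2 was thus the gene of the cluster found at over 15 FPKM in every library, and its neighbour DSG3 was at most at 0.0242 FPKM outside the 5637 knockdown libraries. The antisense rows DSG2-AS1 and DSCAS, which overlap DSG2 and DSC2, were at most at 0.150 and 0.146 FPKM, and the strand setting of the counting is not given in the sources used here.

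Of the 10 other desmosomal cadherins and plakins listed, 5 passed the filter among the knockdown libraries, with 2 higher and 2 lower in 5637 at an adjusted limma p under 0.05. Envoplakin (EVPL) and periplakin (PPL), plakins of the cornified envelope, were higher by 3.60 ± 0.21 and 2.53 ± 0.21 on the log2 scale. Dystonin (DST) and plectin (PLEC), large plakins that also anchor hemidesmosomes and other filaments, were lower by the values -1.80 ± 0.25 and -1.35 ± 0.24. PKP4, a relative of the plakophilins, differed by 0.06 ± 0.25, with 4.89 and 7.32 FPKM in the UM-UC-3 and 6.51 and 6.02 in the 5637 knockdown libraries. The median difference of the list was 0.06.

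Of 12 adherens junction genes, 11 were tested, and 5 were higher and 3 lower in 5637. P-cadherin (CDH3) was at 39.5 and 43.0 FPKM in the 5637 knockdown libraries against 0.0859 and 0.0371 in UM-UC-3, and E-cadherin (CDH1) at 19.2 and 14.1 against 0.00931 and 0.00301. NECTIN1, a cell adhesion receptor, was higher by 3.02 ± 0.25 and NECTIN4 by 2.52 ± 0.21. N-cadherin (CDH2), at 8.18 and 11.9 against 24.8 and 19.9 FPKM, was among those lower. The classical cadherins therefore differed between the lines in both directions.

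Of the 5 listed relatives of PERP in the PMP22 and EMP superfamily, 4 were tested, of which 1 was higher and 2 were lower in 5637. EMP3 was at 0.257 and 0.384 FPKM in the 5637 knockdown libraries and at 37.9 and 54.2 in those of UM-UC-3, and PMP22 at 0.729 and 0.614 against 7.30 and 9.46. EMP2 was higher, at 9.08 and 8.46 against 1.62 and 0.996 FPKM. EMP1 was at 27.0 and 2.55 FPKM with sh-LNMAT1#1 and sh-LNMAT1#2 in UM-UC-3, a gap between hairpins that left its line difference at -1.72 ± 0.99. PERP was thus unlike EMP3 and PMP22 in direction and like EMP2.

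TP63, which encodes p63, a regulator of the basal layer of stratified epithelia, was listed because PERP is one of its targets. TP63 was at 11.7 and 13.9 FPKM in the 5637 knockdown libraries and at 0.0788 to 0.238 in the other 4, and was higher in 5637 by 4.31 ± 0.23 on the log2 scale.

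Of 12 epithelial transcription and splicing regulators, 11 were tested among the knockdown libraries, with 10 higher and 0 lower in 5637 and a median difference of 4.04. Those called higher, except KLF5, passed the filter only through the 5637 libraries, so the count and the median were in part fixed by the filter. EHF was at 28.5 and 43.8 FPKM against 0.0205 and 0.0348, KLF5 at 46.4 and 67.7 against 1.32 and 1.07, and ESRP1, an epithelial splicing factor, at 24.0 and 19.8 against 0.0842 and 0.0327. GRHL2, a grainyhead factor, was at 16.2 and 14.5 FPKM against 0.0123 and 0. TFAP2A, at 2.80 and 3.61 against 3.45 and 2.69 FPKM, was the one tested that was not called. In the library labelled 5637 sh-NC, EHF was at 0.0356, KLF5 at 0.979, ESRP1 at 0.117 and GRHL2 at 0.00609 FPKM.

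Of the 6 repressors of junction genes, 4 were tested, with 1 higher and 2 lower in 5637. ZEB1 was at 8.67 to 12.7 FPKM in UM-UC-3, at 12.6 in the library labelled 5637 sh-NC and at 0.0264 and 0.00774 in the 5637 knockdown libraries. SNAI1 was lower, by the value -1.67 ± 0.29, and SNAI2 (Slug) was higher, by 2.50 ± 0.26. TWIST2 was listed at 0 in every library. The part of any of these regulators in the levels of the desmosome genes was not tested.

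Markers of cell types moved with the same split. The 8 of 9 epithelial markers that were tested were higher in 5637, with KRT19 at 299.6 and 409 FPKM against 0.0629 and 0.0712 and KRT5 at 81.1 and 154.6 against 0.0387 and 0.0376. Most of them, KRT19 and KRT5 included, passed the filter only through the 5637 knockdown libraries. This count was thus in part fixed by the filter and is a description. Of all 12843 genes, 20.2% were called higher and 18.4% lower in this comparison. Of 6 mesenchymal markers, 4 were lower and 1 higher in 5637, with VIM at 3.85 and 4.14 FPKM against 115.8 and 155.0 and FN1, the one higher, at 109.6 and 102.4 against 2.27 and 1.07. The summed level of 5 leukocyte markers was 1.43 to 1.67 FPKM in the 5637 knockdown libraries and 13.0 to 31.2 in the other 4, nearly all of it from CD68, while CD3E was listed at 0 in every library and PTPRC in all but 1. The 4 endothelial markers summed to 0.0809 to 0.303 FPKM over the 6 libraries. The 6 fibroblast markers summed to 0.153 to 0.460 FPKM outside the 5637 knockdown libraries and to 8.37 and 6.68 within them, of which COL1A1 gave 7.92 and 6.37. The part of these marker differences in the desmosome values was not tested.

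Genes with the profile nearest to PERP or DSP over the 6 libraries were found by the root mean square distance of log2(FPKM + 0.5) values, each centred on its own mean. Nearest to PERP was ID1, an inhibitor of basic helix-loop-helix factors, at a distance of 0.18. ID1 was at 17.6 FPKM in the UM-UC-3 control and 79.5 and 31.4 with the hairpins, and at 70.1, 222 and 264 FPKM in the 5637 libraries in that order, so its libraries ranked as those of PERP did. ZNF704, SLC6A8, SRPX2 and OTUD1 followed, at distances of 0.26 to 0.36. Nearest to DSP were MFI2, STAP2, VANGL2, MPZL2 and CPE, at distances of 0.06 to 0.09, all at 12.3 to 15.8 FPKM in the 5637 knockdown libraries and at most at 0.118 FPKM elsewhere. The DSP profile, near 0 in 4 libraries and high in 2, had closer neighbours than the graded profile of PERP. Adding 0.5 makes values near 0 almost equal, so distances between profiles like that of DSP are small in part by construction.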

How the data were processed

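RNA from UM-UC-3 and 5637 cells, stably expressing sh-NC, sh-LNMAT1#1 or sh-LNMAT1#2, was sequenced as 1 library each and grouped by the labels. The values are FPKM per gene as deposited by the authors, in a single table, and their processing notes name HISAT2 and hg38. The counting program and annotation are not given in the sources used here. Of 50869 rows, the 2 that hold a broken record were left out.

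With GENCODE release 29, 88.4% to 88.7% of the low values of genes with several exons (under 1000 fragments) came out within 0.02 of a whole fragment on the summed length of distinct exons, and 98.8% to 99.1% of those with a single exon. Depth (19374807 to 24706820 fragments) and fragments per gene were read from this, and values of at most 3 fragments were taken as the floor. Fragments of PKP1, PKP2, DSC2 and LINC01296 rest on a fitted length, because their summed exons did not match.

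Differences of log2(FPKM + 0.5) were tested with limma 3.58.1 in R 4.3.3 (lmFit, eBayes with a trend, Benjamini-Hochberg) over genes whose mean reached 1 FPKM, pooled with the line as a covariate (3 residual degrees of freedom), between the lines among the 4 knockdown libraries (2) and for the interaction (2). Within a line, 2-fold with both hairpins was used with no test. Between the lines and for the interaction, the p-values measure the spread between libraries of different hairpins. In the pooled fit the spread also includes the difference of the knockdown effect between the lines. The pooled fit and the fit between the lines were tested on simulated data with a common spread for all genes, and the interaction fit was not. Python 3.11.15 was used for descriptions. The named genes were the members, the target, up to 4 examples per list with the largest differences, the rows of the cadherin cluster and the 5 nearest profiles to PERP and DSP; values of the other list genes given (PKP4, CDH2, TFAP2A, TWIST2, PTPRC, CD3E) were chosen after they were seen. Some genes of these lists are not reported here, and the next in rank was taken. The members and lists were chosen with earlier results of these data known.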

Additional observations from a re-analysis of the deposited data

Results flagged for a closer look

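The knockdown difference was larger in 5637 than in UM-UC-3 for 7 of the 8 members tested, by limma's interaction term with Benjamini-Hochberg adjustment over all genes. By the same term, 10% of 12716 genes were called higher and 8.79% lower. The log2 difference between the lines was 7.39 for JUP, 5.02 for DSP, 4.06 for DSG3, 3.66 for PKP3, 2.92 for PKP2, 2.07 for DSC2 and 1.73 for DSG2. The adjusted p-values ran from 0.00283 for JUP to 0.0483 for PKP3. Of these, DSP, JUP, PKP2, DSG3 and DSC2 passed the filter only through the 5637 knockdown libraries where they were high, so the count of 7 is in part fixed by the filter. All 7 use the library labelled 5637 sh-NC as the control of its line, and in that library these genes were at the levels of UM-UC-3.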

How the results depend on the processing

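Of the values of single members under the alternatives, 309 kept their side of the threshold or moved by less than the spread, 17 moved, 19 lost their call, 8 gained one and 5 changed sign beyond that. These 5 were JUP against PERP, whose log2 level ratio in the 5637 knockdown libraries went from -1.06 to 0.051 per longest transcript, a setting chosen after seeing the data, and, without the library labelled 5637 sh-NC, 4 pooled differences that became -0.10 (DSP), -0.22 (JUP), -0.0075 (PKP2) and -0.23 (PKP3). Without UM-UC-3 sh-NC these 4 were 4.92, 7.17, 2.91 and 3.44. Among the 309, PKP3 and DSG2 in UM-UC-3, neither of them called, also changed sign without UM-UC-3 sh-LNMAT1#1, from -0.23 to 0.58 and from 0.01 to -0.20. In the pooled fit the calls of members changed with the library left out. Without UM-UC-3 sh-NC the library labelled 5637 sh-NC was its only control, and no count is given for that fit. Between the lines the calls of PERP, PKP3 and DSG2 were lost when 1 of the 5637 knockdown libraries was left out. The count between the lines was 0 with all 6 libraries by labelled line. It was 5 with a filter of 5 FPKM, where PKP2, DSG3, DSC2 and DSC3 were no longer tested. With UM-UC-3 sh-NC added it was 8, and DSC3 was no longer tested. The interaction count was 3 with the filter of 5 FPKM, where PKP2, DSG3 and DSC2 were not tested and the call of PKP3 was lost. With hairpins as a replicate block, the count between the lines stayed at 9, and the numbers name hairpins and no shared culture. A 5-fold rule called 0 members in UM-UC-3 and 5 in 5637, and without UM-UC-3 sh-LNMAT1#2 the members called lower in UM-UC-3 went from 0 to 1, PKP3. The interaction call of PKP3 was lost with a pseudocount of 0.1 (adjusted p = 0.0565) and with no filter (0.195), and that of DSG2 with no filter (0.102). PKP3 lost its call between the lines with no filter (0.0677).

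Over all genes, the higher and lower calls ranged from 2 to 667 and 2 to 637 in UM-UC-3 (130 and 43 as reported), 752 to 3578 and 354 to 2874 in 5637 (2365 and 1567), 0 to 2115 and 0 to 1914 in the pooled fit (0 and 0), 1 to 3124 and 1 to 2757 between the lines (2589 and 2362), and 420 to 1669 and 469 to 1273 in the interaction (1271 and 1118). With 1 library a group and genes at a few fragments, small changes of PKP1, PKP2, DSG3 and DSC3 within UM-UC-3 were beyond this depth, and where a setting changed a call the cause was not tested.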
